A study of Mus musculus with 14 samples.

Results

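The genes described here were 10 genes of the integrated stress response and of the mitokines it controls: *Gdf15*, *Fgf21*, *Atf4*, *Atf5*, *Ddit3*, *Trib3*, *Chac1*, *Asns*, *Psat1* and *Phgdh*. They were found by gene symbol in the liver count table and joined by Ensembl ID to the fibroblast table, 10 genes of the 54532 in each table. The symbol *Ddit3* stood on an additional ID with 0 reads in every library, which was not used. The study used mice and cells in which TRF2, a protein that caps telomeres and is encoded by *Terf2* (also called *Trf2*), can be removed by Cre recombinase. The question for these genes was whether a rise of *Gdf15* in senescent samples was joined by other targets of ATF4, in cultured cells and in liver.

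The groups were senescent iMEFs (n = 3), control iMEFs (n = 3), senescent livers (n = 4) and control livers (n = 4). iMEFs are fibroblasts of mouse embryos made immortal with the large T antigen of SV40, a viral protein known to bind p53, and both iMEF groups carried the genotype Trf2F/F;Rosa-CreER, in which a ubiquitous Cre becomes active with 4-hydroxytamoxifen (4HT). Senescent iMEFs received 4HT and were collected at day 7, and control iMEFs received vehicle, so that loss of *Terf2* and exposure to 4HT cannot be told apart. Senescent livers came from Trf2F/F;Rosa-mTmG mice and control livers from Rosa-mTmG mice, both homozygous for the Rosa-mTmG reporter (mTmG/mTmG) according to the methods, and all were given the virus AAV8-Tbg-Cre and sampled 6 to 7 weeks later. The Tbg promoter is active in hepatocytes, so the other cells of the liver keep *Terf2*, and RNA was taken from whole liver. The strains were on a C57BL/6J background, and no age of the animals is given in the sources used here.

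The integrated stress response is a switch in translation. Kinases that sense amino acid shortage, misfolded protein, heme shortage or double-stranded RNA phosphorylate the initiation factor eIF2, which lowers translation of most mRNAs and raises that of *Atf4*, so that ATF4 protein can increase with no change of its mRNA. ATF4 then turns on genes for amino acid synthesis and transport, for tRNA charging and for its own feedback. In liver and muscle, mitochondrial stress acting through this pathway is known to raise the secreted factors GDF15 and FGF21, called mitokines, and *Gdf15* is also a known target of p53.

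Promoter sequences of the members bear on whether they could share a regulator, so windows of 300 bases, 250 before and 50 after the start in RefSeq (GRCm38.p6), were searched on both strands for TGATGNAA, the core of the composite element bound by ATF4 with C/EBP proteins. The motif was present in 4 of the 10 members, *Fgf21*, *Trib3*, *Chac1* and *Asns*, against 4.51% of the 27025 genes with a window. The members were chosen as genes of this pathway, so this share is a description and no evidence of a common regulator. The windows of these members and that of *Gdf15*, the gene whose change is followed here, are shown 5′ to 3′ on the strand of the gene, with the match in capitals. The *Gdf15* window shown (chr8:70632407-70632706, minus strand) held no match. A further *Gdf15* window (chr8:70632046-70632345), whose start lies 361 bases from the annotated start of the gene, held none either. The match of *Fgf21* (chr7:45615441-45615740, minus strand) began 139 bases upstream of the start and that of *Chac1* (chr2:119350992-119351291, plus strand) 193 bases upstream, both on the opposite strand. The match of *Asns* (chr6:7693160-7693459, minus strand) began 23 bases upstream on the strand of the gene, and that of *Trib3* (chr2:152344011-152344310, minus strand) 15 bases downstream on the opposite strand.
Gdf15: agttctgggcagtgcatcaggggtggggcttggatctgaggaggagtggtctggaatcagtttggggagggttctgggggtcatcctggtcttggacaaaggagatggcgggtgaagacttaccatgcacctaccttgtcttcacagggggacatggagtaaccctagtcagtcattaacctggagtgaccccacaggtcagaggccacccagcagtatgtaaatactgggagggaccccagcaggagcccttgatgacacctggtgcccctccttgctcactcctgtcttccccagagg
Fgf21: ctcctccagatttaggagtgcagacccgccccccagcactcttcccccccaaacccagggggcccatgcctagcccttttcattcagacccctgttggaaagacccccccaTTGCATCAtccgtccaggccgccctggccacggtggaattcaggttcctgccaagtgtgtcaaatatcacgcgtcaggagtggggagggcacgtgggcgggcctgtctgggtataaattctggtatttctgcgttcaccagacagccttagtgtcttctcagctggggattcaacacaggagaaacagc
Trib3: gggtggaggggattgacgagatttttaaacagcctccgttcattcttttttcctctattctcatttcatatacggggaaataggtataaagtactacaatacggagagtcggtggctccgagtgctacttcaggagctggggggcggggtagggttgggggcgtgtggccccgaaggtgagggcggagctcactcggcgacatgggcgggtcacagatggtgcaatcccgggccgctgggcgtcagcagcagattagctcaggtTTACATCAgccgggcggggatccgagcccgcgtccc
Chac1: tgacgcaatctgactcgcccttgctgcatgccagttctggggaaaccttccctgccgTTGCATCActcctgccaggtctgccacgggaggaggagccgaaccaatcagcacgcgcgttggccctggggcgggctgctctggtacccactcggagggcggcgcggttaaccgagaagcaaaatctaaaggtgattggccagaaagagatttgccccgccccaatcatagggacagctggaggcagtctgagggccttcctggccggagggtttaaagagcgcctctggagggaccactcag
Asns: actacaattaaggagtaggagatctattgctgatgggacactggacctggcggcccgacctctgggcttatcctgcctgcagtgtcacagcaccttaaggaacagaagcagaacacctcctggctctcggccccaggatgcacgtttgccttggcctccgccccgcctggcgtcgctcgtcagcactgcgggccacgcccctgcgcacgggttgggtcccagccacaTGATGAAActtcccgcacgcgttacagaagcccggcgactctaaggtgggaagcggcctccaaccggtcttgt

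A cAMP response element, TGACGTCA, was found in 0 of the 10 members and in 2.03% of all genes. The full endoplasmic reticulum (ER) stress response element was also found in 0 of 10 and in 0.137% of genes. No stretch of letters can match more than 1 of the 3 motifs over its whole length. These matches describe letters in a window and not binding.

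Libraries held 15364450 to 20177401 reads in genes. Mitochondrially encoded genes took 0.853%, 0.644% and 2.32% of the reads of senescent iMEFs 1, 2 and 3, against 0.599% to 0.736% in control iMEFs, so senescent iMEF 3 stood apart. In livers this share was 3.96% to 5.08% in senescent and 4.32% to 5.15% in control libraries. *Terf2*, the deleted gene, followed its labels. It was at 0.215, 0.305 and 0.229 CPM in senescent iMEFs, against 37.7, 39.2 and 38.0 CPM in control iMEFs, and at 4.91, 2.84, 2.87 and 4.67 CPM in senescent livers, against 11.3, 13.8, 13.8 and 11.6 CPM in control livers. Levels in CPM are counts scaled to a common library total, with a TMM factor per library that removes differences in composition.

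Fibroblast markers, which define the tissue of the iMEFs, were detected in every library, with a summed level of 9127 to 11337 CPM in senescent iMEFs, against 20749 to 22650 CPM in control iMEFs, and 7 of the 8 were lower in senescent cells. Of the 8 hepatocyte markers, 5 were at 0 reads in iMEFs. In livers the hepatocyte markers summed to 92885 to 112290 CPM in senescent and 83904 to 95553 CPM in control libraries.

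In iMEFs, the members did not move as a block. *Gdf15* was 7.51-fold higher in senescent cells, *Ddit3* rose by a small amount, and *Fgf21*, *Atf4*, *Atf5* and *Trib3* fell. *Chac1*, *Asns*, *Psat1* and *Phgdh* did not pass the test. Thus 2 members rose and 4 fell at an adjusted p below 0.05 in edgeR's quasi-likelihood test, while 39.8% of all 13561 tested genes were called in either direction, 18.6% higher and 21.2% lower. The groups did not overlap for 7 of the 10 members, against 50.6% of tested genes. The median log2 fold change of the members was -0.15, against 0.003 for all tested genes. *Gdf15* passed the filter on low counts only through the senescent libraries and *Fgf21* only through the control libraries, so each was tested through the group in which it was higher. Among the other 8 members, 1 was higher and 3 were lower, with the same median of -0.15. When 1 library was left out, 1 to 2 members were higher, 1 without control iMEF 2, and 2 to 5 were lower, 2 without control iMEF 1. With 10 genes, nothing particular to the members is read from these counts.

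*Gdf15* (chromosome 8, 70629393 to 70632456, minus strand, GRCm38) encodes growth differentiation factor 15, a secreted stress signal that acts on the hindbrain. Senescent iMEFs 1, 2 and 3 had 3.60, 3.72 and 3.90 CPM of *Gdf15*, against 0.497, 0.404 and 0.577 CPM in control iMEFs. These levels rested on 67, 61 and 68 reads in senescent cells, against 9, 8 and 11 reads in control cells. Every senescent library was above every control library, and the spread within each group was small beside the gap. Its log2 fold change was 2.91 (standard error, SE, 0.277, 95% confidence interval 2.31 to 3.51, adjusted p = 5.89e-06, edgeR). Only 1 of the 3 control libraries reached the level the filter asks for, against 3 of 3 senescent libraries, and with no filter the log2 fold change was 2.89. Among the 2522 genes called higher in iMEFs, *Gdf15* ranked 31 by log2 fold change and 102 by p.

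*Fgf21* (chromosome 7, 45613886 to 45615490, minus strand) encodes fibroblast growth factor 21, a hormone made mainly by liver that signals through β-klotho. Senescent iMEFs 1, 2 and 3 had 0, 1 and 8 reads, which is 0, 0.0609 and 0.459 CPM, against 20, 16 and 18 reads, or 1.10, 0.807 and 0.944 CPM, in control iMEFs. Every senescent library was below every control library, at few reads. The log2 fold change was -2.42 (SE 0.676, 95% confidence interval -3.89 to -0.95, adjusted p = 0.01326). The gene passed the filter only through the control libraries, and with no filter the log2 fold change was -2.44. Most of its reads in senescent cells came from senescent iMEF 3, the library with the high mitochondrial share, and without that library the log2 fold change was -4.74 (adjusted p = 0.0002451).

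**Figure D1:**
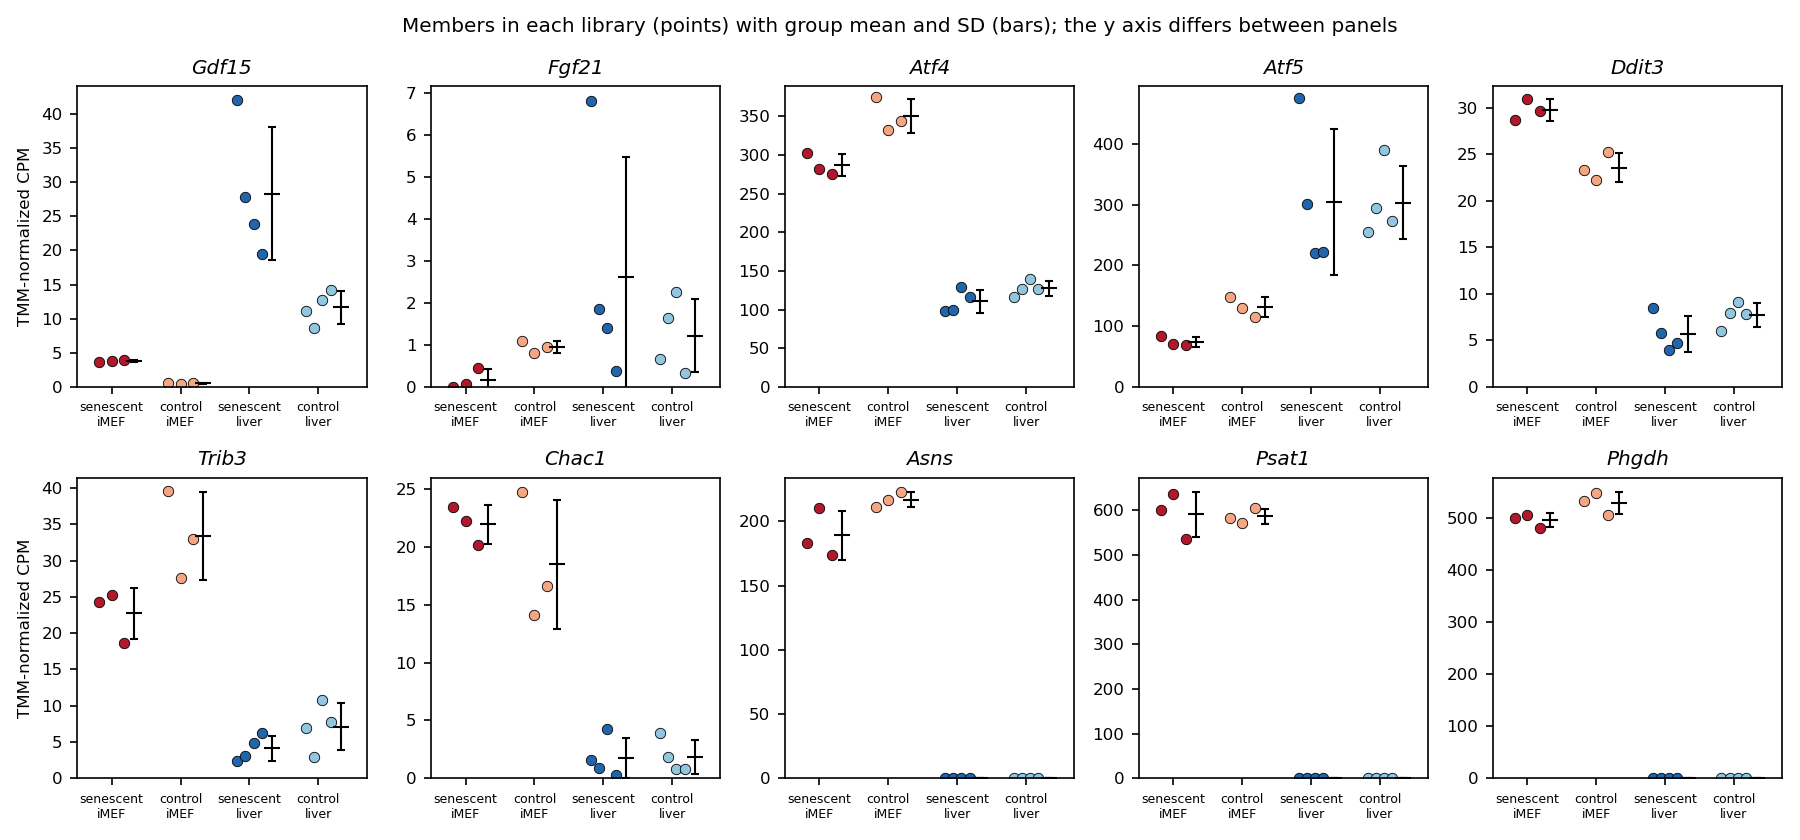
TMM-scaled CPM (y axis, linear, a different range in each panel) of the 10 genes in senescent iMEFs, control iMEFs, senescent livers and control livers, with a point per library and the group mean ± SD beside it. *Gdf15* was higher in senescent samples of both tissues, from 19.5 to 42.0 CPM in senescent livers and 8.56 to 14.3 CPM in control livers, while *Asns*, *Psat1* and *Phgdh* were near 0 in liver.

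Among the transcription factors, *Atf4* (chromosome 15, 80255184 to 80257541, plus strand), the effector of the pathway, had 303, 282 and 275 CPM in senescent iMEFs, against 375, 332 and 344 CPM in control iMEFs. The groups did not overlap and the fall was small, with a log2 fold change of -0.29 (SE 0.0826, adjusted p = 0.01446). Without control iMEF 1 the adjusted p was 0.08194.

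*Atf5* (chromosome 7, 44812256 to 44816658, minus strand), a related factor that is also translated upon eIF2 phosphorylation and has been tied to mitochondrial protein stress, fell further. It had 83.7, 69.9 and 69.4 CPM in senescent iMEFs, against 149, 129 and 115 CPM in control iMEFs. It changed by -0.82 on the log2 scale (SE 0.107, adjusted p = 8.172e-05), and the groups did not overlap. *Atf5* shares 82 exonic bases with *Nup62* and *Il4i1* on the opposite strand, and the strand setting of the counting is not given in the sources used here.

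*Ddit3* (chromosome 10, 127290774 to 127296288, plus strand) encodes CHOP, a factor induced by ATF4 and known for its part in cell death under ER stress. Its 28.7, 31.0 and 29.7 CPM in senescent iMEFs stood above the 23.3, 22.3 and 25.2 CPM in control iMEFs. The rise was small, with a log2 fold change of 0.34 (SE 0.0957, adjusted p = 0.01465), and the call was lost without control iMEF 1 (adjusted p = 0.05819) or control iMEF 2 (adjusted p = 0.08796). *Ddit3* shares 68 exonic bases with *Mars* and 13 with *Gm4189*, both on the opposite strand.

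Feedback and effector genes came next. *Trib3* (chromosome 2, 152337422 to 152344032, minus strand), a pseudokinase that is a target of ATF4 and CHOP and restrains them, had 24.3, 25.2 and 18.7 CPM in senescent iMEFs, against 39.6, 27.5 and 33.1 CPM in control iMEFs. It fell by 0.55 on the log2 scale (SE 0.144, adjusted p = 0.009106), with an adjusted p of 0.05041 without control iMEF 1. *Chac1* (chromosome 2, 119351229 to 119354381, plus strand), which degrades glutathione, had 23.4, 22.2 and 20.1 CPM in senescent iMEFs, against 24.7, 14.1 and 16.6 CPM in control iMEFs. The groups overlapped through control iMEF 1, and the log2 fold change was 0.25 (95% confidence interval -0.12 to 0.62, adjusted p = 0.2729). Without that library it was 0.51 (adjusted p = 0.01491).

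The members that make amino acids were abundant and moved little in iMEFs. *Asns* (chromosome 6, 7675169 to 7693254, minus strand), asparagine synthetase, had 183, 210 and 173 CPM in senescent iMEFs, against 211, 217 and 223 CPM in control iMEFs. Its groups were just separate and its log2 fold change was -0.20 (95% confidence interval -0.38 to -0.01, adjusted p = 0.08356), with an adjusted p of 0.02461 without senescent iMEF 2. *Psat1* (chromosome 19, 15904678 to 15947337, minus strand) and *Phgdh* (chromosome 3, 98313170 to 98339990, minus strand) encode enzymes of serine synthesis.

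*Psat1* had 601, 635 and 536 CPM in senescent iMEFs, against 583, 571 and 604 CPM in control iMEFs. *Phgdh* had 499, 506 and 480 CPM in senescent iMEFs, against 533, 547 and 505 CPM in control iMEFs. The groups overlapped for both genes. On the log2 scale the change was 0.01 for *Psat1* (95% confidence interval -0.18 to 0.21, adjusted p = 0.9296) and -0.09 for *Phgdh* (95% confidence interval -0.27 to 0.08, adjusted p = 0.3794).

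In livers, *Gdf15* was the member called, and it was 2.43-fold higher in senescent livers. Of the 10 members, 8 passed the filter on low counts. Of these, 1 was higher, 0 were lower and 7 did not pass, where 0.343% of 14270 tested genes were called, 0.308% higher and 0.035% lower. The count of lower members was 0 also by DESeq2 and limma-voom, and at an unadjusted p below 0.05 it was 0 by edgeR, 0 by limma-voom and 1 by DESeq2. The groups did not overlap for 1 of the 8, against 4.51% of tested genes. The median log2 fold change was -0.13 over the 8 members and -0.004 over all tested genes. In whole liver, fewer cells of a type and less RNA per cell cannot be told apart.

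*Gdf15* had 42.0, 27.9, 23.8 and 19.5 CPM in senescent livers 1 to 4, against 11.1, 8.56, 12.7 and 14.3 CPM in control livers 1 to 4. The groups did not overlap, but senescent liver 4 lay closer to control liver 4 than to senescent liver 1. The rise was 1.28 on the log2 scale (SE 0.226, 95% confidence interval 0.79 to 1.77, adjusted p = 0.03414, edgeR). Among the 44 genes called higher in liver, *Gdf15* ranked 25 by log2 fold change and 42 by p. The call was lost without control liver 1 (adjusted p = 0.1191), control liver 2 (0.0953), control liver 3 (0.0833), senescent liver 2 (0.1081) or senescent liver 3 (0.05241), although the log2 fold change stayed between 1.03 and 1.42 when any 1 library was left out. By limma-voom the adjusted p was 0.0593, and by DESeq2 it was 1.021e-05.

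Markers of other liver cells were examined beside this rise. Summed levels in senescent and control livers were 387 to 488 and 214 to 476 CPM for 8 Kupffer cell and macrophage markers, and 20.9 to 30.9 and 19.2 to 31.2 CPM for 9 other leukocyte markers. They were 262 to 314 and 229 to 266 CPM for 6 endothelial markers, 407 to 460 and 339 to 408 CPM for 7 stellate cell markers, and 79.8 to 136 and 57.4 to 113 CPM for 6 cholangiocyte markers. Erythroid markers, 5 in number, summed to 132 to 276 and 105 to 172 CPM. None of the markers of these 6 lists was at 0 reads across the livers, and 0 were called by edgeR, while 2 Kupffer (*Adgre1*, 0.50, and *Cd5l*, 0.44), 0 leukocyte, 1 endothelial (*Clec4g*, 0.36), 2 stellate (*Dcn*, 0.35, and *Hand2*, 0.72), 1 cholangiocyte (*Spp1*, 0.54) and 3 erythroid (*Hba-a1*, 0.63, *Hba-a2*, 0.84, and *Hbb-bs*, 0.65) markers were higher at an unadjusted p below 0.05, with the log2 fold change in parentheses. Tested were 8 Kupffer, 7 leukocyte, 6 endothelial, 7 stellate, 5 cholangiocyte and 5 erythroid markers, and 0 were lower at that unadjusted p. Among all 14270 tested genes, 592 were higher and 484 lower at it. DESeq2 called 1 stellate marker higher at an adjusted p below 0.05. The part of these markers in the *Gdf15* result was not tested.

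*Fgf21* in livers turned on a single animal. It had 6.82, 1.85, 1.40 and 0.379 CPM in senescent livers 1 to 4, against 0.669, 1.64, 2.25 and 0.333 CPM in control livers 1 to 4. Senescent liver 1 was far above the rest and the other senescent livers lay within the range of the controls. The log2 fold change was 1.11 (95% confidence interval -0.50 to 2.73, adjusted p = 0.7796), and -0.01 without senescent liver 1.

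The transcription factors had overlapping groups in liver. *Atf4* had 98.2, 99.4, 129 and 116 CPM in senescent livers, against 116, 126, 140 and 127 CPM in control livers (log2 fold change -0.20, 95% confidence interval -0.43 to 0.03, adjusted p = 0.6928). *Atf5* had 475, 300, 220 and 222 CPM in senescent livers, against 256, 294, 390 and 273 CPM in control livers. Its log2 fold change was near 0 (95% confidence interval -0.49 to 0.50, adjusted p = 0.9972), and was -0.29 without senescent liver 1. *Ddit3* had 8.44, 5.75, 4.01 and 4.67 CPM in senescent livers, against 5.97, 7.92, 9.12 and 7.88 CPM in control livers (log2 fold change -0.43, 95% confidence interval -0.94 to 0.08, adjusted p = 0.7181). Senescent liver 1, the highest of the 8 livers for *Gdf15*, *Fgf21* and *Atf5*, was the lowest for *Atf4* and *Trib3*.

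*Trib3* had 2.43, 3.04, 4.90 and 6.19 CPM in senescent livers, against 6.97, 2.87, 10.8 and 7.77 CPM in control livers. *Chac1* had 1.56, 0.925, 4.27 and 0.316 CPM in senescent livers, against 3.90, 1.82, 0.791 and 0.832 CPM in control livers. The livers of a group differed several-fold in both genes and the groups overlapped. The log2 fold change was -0.78 for *Trib3* (95% confidence interval -1.60 to 0.05, adjusted p = 0.6853) and -0.06 for *Chac1* (95% confidence interval -1.54 to 1.43, adjusted p = 0.9922).

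The genes for amino acid synthesis were scarcely detected in liver. *Psat1* had 0.636, 0.463, 0.510 and 0.505 CPM in senescent livers, against 0.836, 0.410, 1.22 and 0.610 CPM in control livers (log2 fold change -0.53, 95% confidence interval -1.45 to 0.40, adjusted p = 0.8231). *Phgdh* had 8, 8, 3 and 10 reads in senescent livers, against 4, 1, 0 and 4 reads in control livers, and *Asns* had 2, 3, 4 and 2 reads, against 1, 0, 6 and 1 reads. Both failed the filter. On log2(CPM + 0.5), the difference between senescent and control livers was 0.60 for *Phgdh* (p = 0.08571, n = 4 each) and 0.15 for *Asns* (p = 0.4857), in exact two-sided permutation tests over 70 arrangements, whose smallest possible p is 0.0286. Without senescent liver 3 the p for *Phgdh* was 0.02857, and without control liver 3 that for *Asns* was 0.02857.

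**Figure D2:**
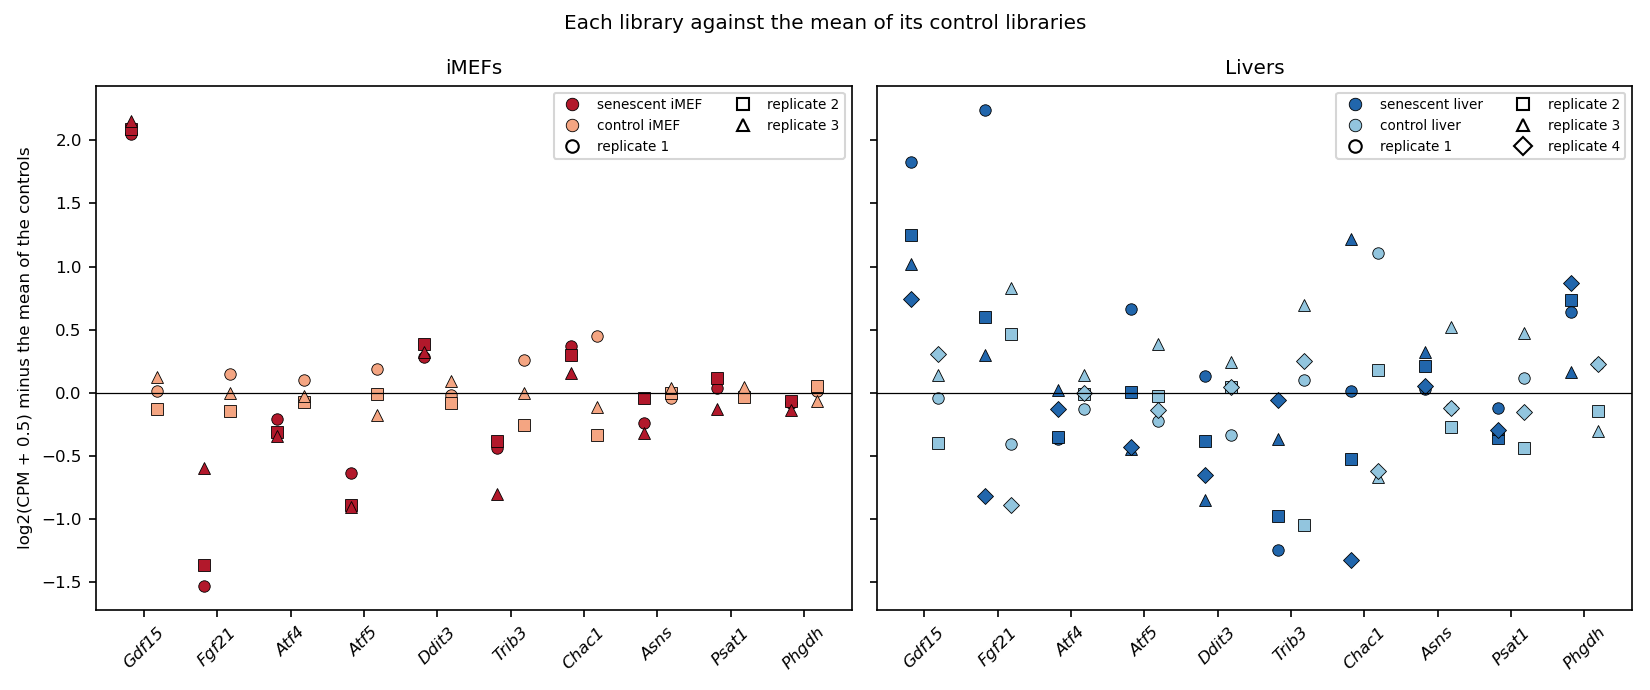
The log2(CPM + 0.5) of each library minus the mean of the control libraries of its tissue (y axis), for the 10 genes (x axis) in iMEFs (left) and livers (right), with dark points for senescent and light points for control libraries and a marker shape per replicate number. Senescent points lay close together in iMEFs apart from those of *Fgf21*, and senescent liver 1 stood highest for *Gdf15*, *Fgf21* and *Atf5*.

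Side by side, the fold change of *Gdf15* differed between the tissues, from control means of 0.493 CPM in iMEFs and 11.7 CPM in livers. The log2 fold change in livers minus that in iMEFs was -1.62 (SE 0.432, 95% confidence interval -2.53 to -0.71, adjusted p = 0.01565, edgeR over 11693 genes tested in both). It was the 1 of 8 members called, where 17.1% of the genes were called, 9.69% with a higher and 7.41% with a lower change in livers. In iMEFs *Gdf15* entered this comparison through the senescent libraries alone, as given above. The call was lost without control iMEF 2 (adjusted p = 0.06048) and with limma-voom (adjusted p = 0.09682). For *Fgf21* the difference was 3.53 (SE 1.29, adjusted p = 0.06917), for *Atf5* 0.82 (adjusted p = 0.07013) and for *Ddit3* -0.76 (adjusted p = 0.06071). These 3 did not pass, but each was close to the threshold. *Fgf21* passed by DESeq2 (0.03099) and limma-voom (0.04459), and without senescent iMEF 3 (5.75, adjusted p = 0.04602), control liver 3 (0.0473) or senescent liver 4 (0.02773). *Atf5* passed without control liver 3 (0.03461), senescent liver 3 (0.03252) or senescent liver 4 (0.03473), and *Ddit3* by limma-voom (0.03237) and without control liver 1 (0.03705) or senescent liver 1 (0.004692).

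For *Atf4*, which was lower in senescent samples of both tissues but called in iMEFs alone, the difference was 0.09 (95% confidence interval -0.21 to 0.39, adjusted p = 0.7247). The remaining differences were -0.23 for *Trib3* (adjusted p = 0.7731), -0.31 for *Chac1* (adjusted p = 0.8077) and -0.53 for *Psat1* (adjusted p = 0.2659). *Asns* and *Phgdh* could not be fitted in this comparison because they failed the filter in livers.

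**Figure D3:**
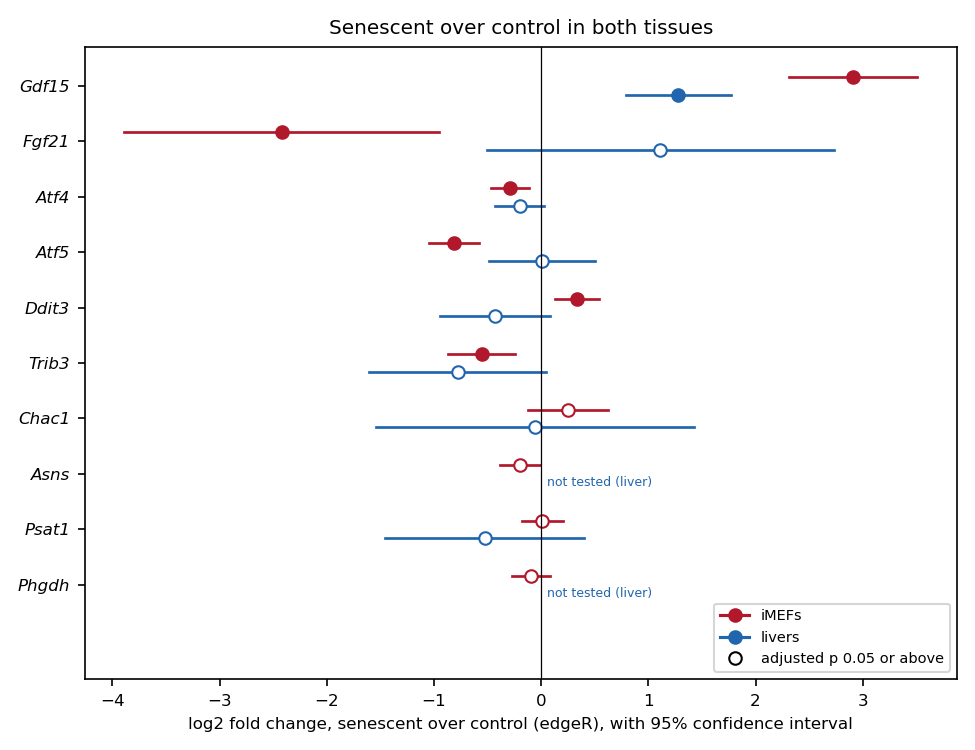
The log2 fold change of senescent over control (x axis) with its 95% confidence interval for the 10 genes (y axis) in iMEFs and livers, filled where the adjusted p was below 0.05. *Gdf15* was filled on the right in both tissues, at 2.91 in iMEFs and 1.28 in livers, and *Fgf21*, *Atf4*, *Atf5* and *Trib3* were filled on the left in iMEFs.

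Levels between genes were compared in TPM, which divide the counts by exon length before scaling to a common total. In senescent iMEFs *Gdf15* averaged 7.56 ± 0.143 TPM and in control iMEFs 0.950 ± 0.186 TPM (SD, n = 3 each), and *Fgf21* averaged 0.668 ± 0.954 and 3.57 ± 0.562 TPM, so that these genes exchanged the last places in the order of the members. The serine enzyme *Phgdh* led with 746 ± 36.2 TPM in senescent and 757 ± 15.3 TPM in control iMEFs. *Psat1* (521 ± 54.5 and 491 ± 24.8 TPM) and *Atf4* (456 ± 31.9 and 530 ± 33.7 TPM) came next, and their ranges overlapped in each group. Within libraries, *Psat1* was above *Atf4* in every senescent iMEF and below it in every control iMEF. *Asns* had 259 ± 29.7 and 283 ± 13.3 TPM and *Atf5* 140 ± 17.7 and 234 ± 26.7 TPM. *Ddit3*, *Chac1* and *Trib3* lay between 40.2 and 65.2 TPM in senescent and between 40.2 and 56.0 TPM in control iMEFs.

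The order in liver was another. *Atf5* led with 375 ± 152 TPM in senescent and 375 ± 73.9 TPM in control livers (SD, n = 4 each), followed by *Atf4* with 115 ± 15.1 and 133 ± 10.0 TPM. *Gdf15* was in the third place with 37.5 ± 13.4 and 15.5 ± 3.33 TPM, followed by *Ddit3* (8.20 ± 2.90 TPM in senescent and 11.1 ± 1.85 TPM in control livers). In control livers the ranges of *Gdf15* and *Ddit3* overlapped. *Gdf15* was the higher in every control liver, by little in control liver 2 (11.255 against 11.251 TPM). *Trib3* (4.78 ± 2.03 and 8.24 ± 3.79 TPM), *Fgf21* (6.78 ± 7.57 and 3.16 ± 2.27 TPM) and *Chac1* (2.63 ± 2.58 and 2.77 ± 2.21 TPM) overlapped each other. *Psat1*, *Phgdh* and *Asns* were all below 0.5 TPM on average in both groups.

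Other genes of the pathway were taken from 9 lists of 144 genes written from general knowledge, with earlier results of these data known. In iMEFs 18.6% of all 13561 tested genes were called higher and 21.2% lower. The counts of each list below are to be read beside these shares. Of 16 ATF4 targets for transcription and feedback, 5 were higher and 4 lower in senescent iMEFs, with a median log2 fold change of 0.14. Higher were *Atf3* (1.56) and *Sesn2* (0.94), which are also known p53 targets, along with *Trib1* (0.69), *Ero1l* (0.46) and *Ern1* (0.34). *Bbc3* (0.22, adjusted p = 0.4198, edgeR) and *Ddit4* (-0.27, adjusted p = 0.1048), on the same list and also known p53 targets, did not pass. *Cebpb* (-1.03), which encodes a dimer partner of ATF4, *Jdp2* (-0.78), *Vldlr* (-0.44) and *Nupr1* (-0.44), a stress-induced chromatin protein, were lower. *Cebpg*, another C/EBP gene on the list, did not pass (0.01, adjusted p = 0.9289, edgeR). The call of *Vldlr* was lost without control iMEF 3, senescent iMEF 1 or senescent iMEF 2 (adjusted p 0.06825, 0.06875 and 0.06536).

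Of 23 genes of amino acid transport and synthesis, 3 were higher and 8 lower in senescent iMEFs, with a median of -0.02. The lower genes of smallest p were *Aldh1l2* (-0.94), a mitochondrial folate enzyme, *Pycr1* (-0.80) of proline synthesis, *Pck2* (-0.57) and *Gpt2* (-0.54). Also lower were *Slc6a9* (-0.50), *Cth* (-0.35), *Slc7a11* (-0.34, adjusted p = 0.0422, edgeR) and *Aldh18a1* (-0.32). When 1 library was left out, 7 to 8 genes of the list were lower. Higher were *Cbs* (0.99), *Slc7a1* (0.35), a carrier of cationic amino acids, and *Mthfd2* (0.33), also of mitochondrial folate metabolism. The call of *Cbs* was lost by DESeq2 (0.05155) and without control iMEF 2, control iMEF 3 or senescent iMEF 2 (adjusted p 0.1164, 0.1305 and 0.1598). Without control iMEF 2 the list had 0 higher, and without control iMEF 3 it had 1. The call of *Slc7a1* was lost without control iMEF 2 (0.0972), and that of *Mthfd2* without control iMEF 2, control iMEF 3, senescent iMEF 1 or senescent iMEF 2 (0.08797, 0.05866, 0.05802 and 0.07965).

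Of 13 aminoacyl-tRNA synthetases, 3 (23.1%) were higher and 0 lower in senescent iMEFs, with a median of 0.06. Over all tested genes 18.6% were higher and 21.2% lower. At an unadjusted p below 0.05, and by DESeq2 and limma-voom, 0 synthetases were lower as well. The 3 higher genes were *Iars* (0.32), *Lars* (0.22) and *Mars* (0.21), for the isoleucine, leucine and methionine enzymes. The count of higher genes was 1 with no filter and without control iMEF 1, senescent iMEF 1 or senescent iMEF 2, and 0 without control iMEF 2. The call of *Iars* was lost without control iMEF 2 (0.05686). Those of *Lars* and *Mars* were lost with no filter on low counts (0.1032 and 0.1403) and without control iMEF 1, control iMEF 2, senescent iMEF 1 or senescent iMEF 2 (adjusted p 0.0611 to 0.1372 for *Lars* and 0.06265 to 0.1587 for *Mars*), and that of *Mars* also without control iMEF 3 (0.08906).

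Of 16 genes for eIF2, its kinases, its exchange factor and its phosphatase subunits, 6 were higher and 2 lower, with a median of 0.14. The kinase genes *Eif2ak2* (-0.48), encoding PKR, and *Eif2ak3* (-0.38), encoding PERK, were lower. Of the 6 higher genes, the smallest p-values were those of *Impact* (0.35), *Eif2b3* (0.41) and *Eif2s1* (0.31). *Impact* is an inhibitor of the kinase GCN2, and *Eif2s1* encodes the phosphorylated subunit. The higher count was 3 without control iMEF 1 and 2 without control iMEF 2, and the lower count was 1 without either of these or without senescent iMEF 1 or senescent iMEF 2. The call of *Eif2ak3* was lost without control iMEF 1, control iMEF 2, senescent iMEF 1 or senescent iMEF 2 (0.05336, 0.08963, 0.1133 and 0.0753), and that of *Eif2s1* without control iMEF 1, control iMEF 2 or senescent iMEF 2 (0.06791, 0.09555 and 0.09186).

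Of 15 genes of the mitochondrial unfolded protein response, 7 (46.7%) were higher and 0 lower in senescent iMEFs, with a median of 0.24. Over all tested genes 18.6% were higher and 21.2% lower. At an unadjusted p below 0.05, and by DESeq2 and limma-voom, 0 genes of the list were lower as well. Without control iMEF 2 the higher count was 3. The smallest p-values were those of the chaperonin genes *Hspd1* (0.82) and *Hspe1* (0.64), which share a promoter region, *Dnaja3* (0.33) and *Trap1* (0.28). The call of *Trap1* was lost without control iMEF 2 (0.05101). These 4 genes were higher in the cells in which the mRNA of *Atf5* was lower, and a link between them was not tested.

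Of 18 genes of ER chaperones and of ATF6 and XBP1 targets, 3 were higher and 5 lower, with a median of -0.02. *Xbp1* (-0.52), the transcription factor activated by splicing in ER stress, and *Sel1l* (-0.45) fell, as did *Pdia4* (-0.52), *Pdia6* (-0.41) and *Edem1* (-0.24). Higher were *Atf6* (0.57), *Dnajb9* (0.64) and *Canx* (0.36). The lower count was 3 without control iMEF 1, control iMEF 2, senescent iMEF 1 or senescent iMEF 2, and 8 without senescent iMEF 3. The call of *Canx* was lost without control iMEF 1 (0.1092) or control iMEF 2 (0.08998). Of 4 tested mitokine receptor genes, *Ret* (1.20), which encodes the coreceptor that GDF15 uses with GFRAL, was higher, and *Fgfr1* (-0.31) and *Fgfr2* (-0.29), used by FGF21 with β-klotho, were lower. *Gfral* had 0 reads in iMEFs. *Klb*, the gene of β-klotho, had 14 reads in senescent and 5 reads in control iMEFs, and neither gene was tested. The calls of *Fgfr1* and *Fgfr2* were lost without control iMEF 1, control iMEF 2, senescent iMEF 1 or senescent iMEF 2 (adjusted p 0.07097 to 0.1187 and 0.08393 to 0.2212), and that of *Fgfr2* also without control iMEF 3 (0.06852) and with DESeq2-type size factors in edgeR (0.05413).

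Of 20 p53 targets, 16 were higher and 1 lower in senescent iMEFs, with a median of 0.87. *Eda2r* (2.30), *Cdkn1a* (2.15), which encodes p21, *Ccng1* (2.12) and *Mdm2* (1.69) had the smallest p-values, and *Sesn1* (-0.52) ran the other way. Of 11 tested targets of PPAR alpha, the fatty acid receptor that drives *Fgf21* in fasting liver, 1 was higher (*Vnn1*, 1.22) and 4 were lower (*Acot1*, -1.40, *Acot2*, -0.78, *Pdk4*, -0.77, and *Acadm*, -0.59), with a median of -0.14. The higher count was 2 without senescent iMEF 3 and with DESeq2-type size factors in edgeR.

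In livers, edgeR as fitted here called 0 genes of the 8 lists other than p53 targets in either direction, against 0.343% of all 14270 tested genes. With no filter on low counts edgeR called 4, *Sesn2* (0.83) higher and *Herpud1* (-0.82), *Gpt2* (-0.72) and *Dnajb9* (-0.81) lower, and without senescent liver 1 it called *Herpud1* lower (-1.06, adjusted p = 0.001622). At an unadjusted p below 0.05 these lists held 3 genes higher and 10 lower of 117 tested. Among all 14270 tested genes, 592 were higher and 484 lower at it, 7.54% in either direction. DESeq2 called *Sesn2* (0.83, adjusted p = 0.004026) higher and *Herpud1* (-0.82, adjusted p = 0.001048), an ER membrane protein of protein degradation, lower, as well as the ER chaperone *Dnajb9* (-0.81, adjusted p = 0.02399). These 4 genes are named after their values were seen, and limma-voom called 0 genes of the 8 lists. Of the 20 p53 targets, 12 were higher and 0 lower by edgeR, with a median of 1.34, and DESeq2 called 13 higher and 0 lower. The smallest p-values were those of *Phlda3* (4.00), *Ccng1* (1.49), *Aen* (1.62) and *Eda2r* (3.16). Over all 14270 tested genes edgeR called 0.308% higher and 0.035% lower. At an unadjusted p below 0.05, 16 p53 targets were higher and 0 lower.

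**Figure D4:**
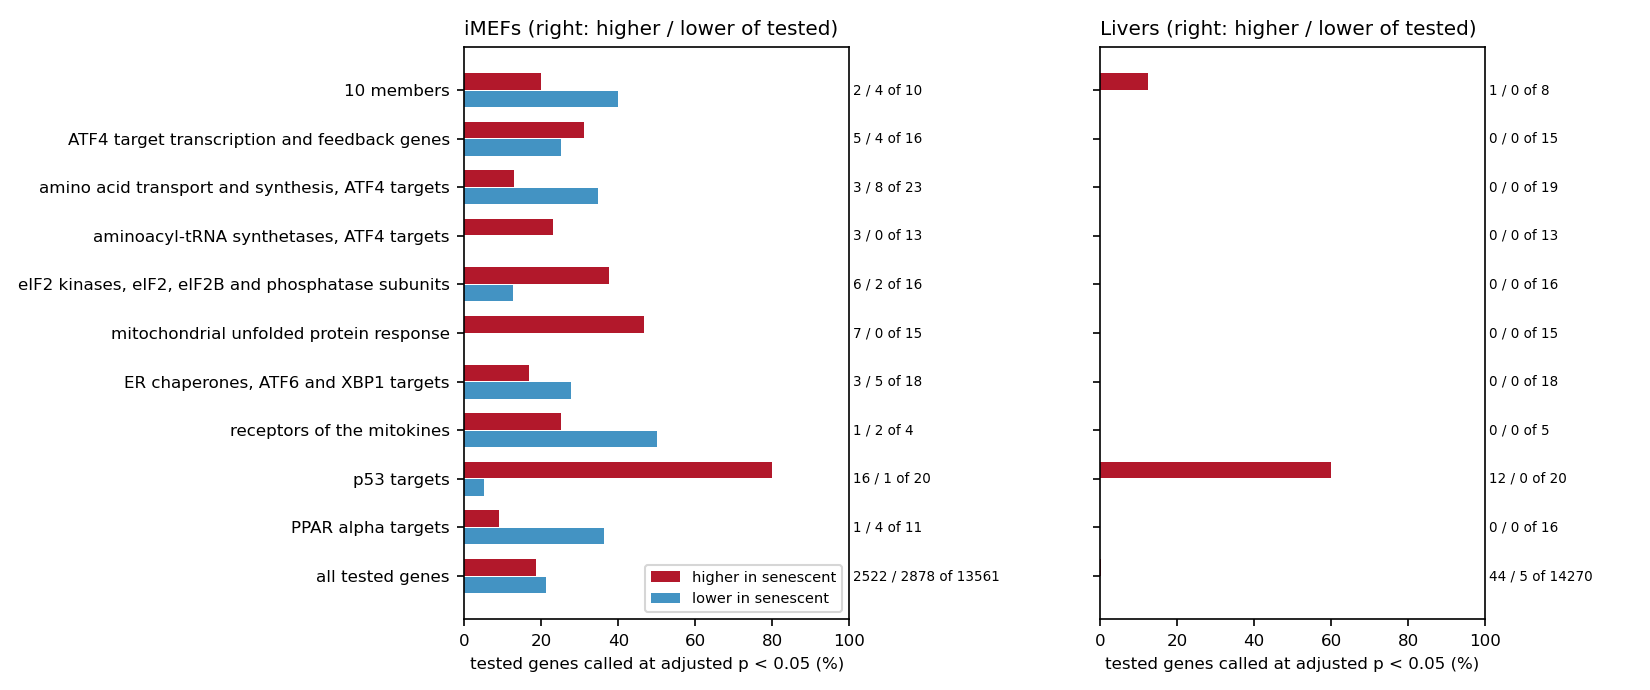
Share of the tested genes of each list called at an adjusted p below 0.05 (x axis, percent), higher (red) or lower (blue) in senescent samples, in iMEFs (left) and livers (right), with the counts at the right edge and all tested genes at the bottom. The p53 targets had 16 of 20 higher in iMEFs and 12 of 20 higher in livers, and the ATF4 target lists had genes on both sides in iMEFs, apart from the tRNA synthetases, and 0 in livers in this fit.

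The genes whose pattern was most like that of *Gdf15* were taken over the 11692 other genes tested in both tissues, by the lower of its 2 Pearson correlations of log2 CPM, over 6 iMEF libraries and over 8 livers. They were *Ptk2b* (r = 0.94 in iMEFs and 0.94 in livers), *Gm37795* (0.91 and 0.91), *Ggta1* (0.95 and 0.91), *Exoc4* (0.98 and 0.90) and *Eda2r* (0.999 and 0.896). The libraries of each tissue fall into their groups for *Gdf15*, so that these values carry the group difference, and they are given with no test. None of the 5 is a member, and *Eda2r* is on the list of p53 targets. *Gm37795* had 2.25 to 7.97 CPM in senescent and 0.472 to 0.663 CPM in control iMEFs, and 6.62 to 8.99 CPM in senescent and 0.704 to 1.33 CPM in control livers. Its log2 fold changes were 2.96 and 3.03 in iMEFs and livers.

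The genes above were picked as the most alike to *Gdf15*, so comparing the members with them cannot set the members apart. The correlations of the members with *Gdf15* also carry the group difference, and they are given as a description with no test. *Ddit3* had r = 0.96 over iMEFs and -0.23 over livers, and *Phgdh* had -0.80 over iMEFs and 0.70 over livers, where it rested on 29 reads in senescent and 9 reads in control livers. *Atf4* had negative values in both tissues, -0.91 over iMEFs and -0.70 over livers, and *Trib3* likewise, -0.79 and -0.48. *Fgf21* (-0.87 and 0.53), *Atf5* (-0.96 and 0.31), *Asns* (-0.76 and 0.34), *Chac1* (0.51 and -0.09) and *Psat1* (0.06 and -0.22) had values of different sign in the tissues.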

How the data were processed

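RNA-seq libraries, 6 of iMEFs and 8 of livers, were analysed. The authors deposited a raw count for each gene and library, in a table for each tissue. The submitters' processing notes name mm10, STAR and featureCounts, with no version. How strand was treated and which annotation was counted is not given in the sources used here. Normalized tables were not used, and 0 columns belonged to other samples. The libraries, 15364450 to 20177401 reads in genes deep, were grouped by their labels, and the columns of senescent samples, whose names differ from the titles, were matched by group and replicate number. No replicates agreed within sampling noise (chi-square per degree of freedom 4.25 to 39.8). The methods call the replicates biological. Nothing says that the iMEF libraries came from separate cultures, so their p-values may measure technical spread.

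Each tissue was fitted with edgeR 4.0.16 in R 4.3.3 (filterByExpr, TMM, quasi-likelihood test, 4 and 6 residual degrees of freedom), with Benjamini-Hochberg adjustment over all tested genes at 0.05. Tissues were compared in 1 fit of 14 libraries. SEs are the log2 fold change over the root of F. TPM used exon lengths of GENCODE release M21. Members that failed the filter were tested by exact permutation. The steps were tested on simulated counts. Alternatives were an adjusted p of 0.01, DESeq2-type size factors (RLE), no filter, DESeq2 1.42.0, limma-voom 3.58.1, the replicate number as a block, leaving out each library, and edgeR's newer quasi-likelihood fit, the last chosen after seeing the data.

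The named genes were all members, *Terf2*, up to 4 called genes of smallest p and any called gene against the majority of each list, and the 5 genes most like *Gdf15*. *Trib1*, *Ero1l*, *Ern1*, *Bbc3*, *Ddit4*, *Gfral* and *Klb* were added after their values were seen. The same holds for *Cebpg*, *Slc6a9*, *Cth*, *Slc7a11*, *Aldh18a1*, *Pdia4*, *Pdia6* and *Edem1*. So were the genes named at an unadjusted p or by another setting in livers. The members and lists were chosen with earlier results of these data known.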

Additional observations from a re-analysis of the deposited data

Results flagged for a closer look

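The log2 fold change of *Gdf15* in livers minus that in iMEFs was -1.62 (adjusted p = 0.01565 in edgeR's test of the difference). The fold change was smaller in livers, where the mean went from 11.7 CPM in control to 28.3 CPM in senescent livers. In iMEFs the mean went from 0.493 CPM in control to 3.74 CPM in senescent cells. Senescent libraries were above all control libraries in 4 of 4 livers and 3 of 3 iMEFs. *Asns* in control liver 3, at 0.365 CPM or 6 reads against 0 to 1 reads in the other control livers, lay apart from its group (gap over range 0.847, above the limit of Dixon's test for 4 samples). It was the 1 such value among 22 groups of livers checked, and chance sets a value apart in about 1 in 20 groups.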

How the results depend on the processing

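At an adjusted p below 0.01, 3385 genes and 3 members were called in iMEFs (5400 and 6 at 0.05), 30 genes and 0 members in livers (49 and 1), and 899 genes and 0 members in the comparison of the tissues (2000 and 1). In livers, 130 genes were called with no filter and 133 by DESeq2, and limma-voom called 0 members. For the comparison of the tissues, the members called were 5 with no filter and 2 each by DESeq2, limma-voom and edgeR's newer fit, the last chosen after seeing the data. Leaving out 1 library gave 4 to 7 members in iMEFs, 0 to 1 members in livers, 0 to 3 members and 1260 to 2153 genes in the comparison of the tissues, 1260 without control iMEF 2. The replicate numbers did not pair the samples (correlations of same-numbered deviations -0.1825 to 0.0038 in iMEFs and -0.0949 to 0.2567 in livers). With the replicate block, 4696 genes and 6 members were called in iMEFs, 42 genes and 0 members in livers (*Gdf15* 1.25, adjusted p = 0.07244), and 1842 genes and 1 member in the comparison of the tissues. With it the mitochondrial unfolded protein response had 5 genes higher in iMEFs, *Cbs* (adjusted p = 0.06136), *Mars* (0.05593) and *Fgfr2* (0.05682) were not called, and *Herpud1* was called lower in livers (0.0137). Signs turned, in values that passed in no setting, for *Psat1* in iMEFs (-0.0032 with no filter, -0.0476 to 0.09 with 1 library left out), *Fgf21* in livers (-0.0086 without senescent liver 1, to 1.58), *Atf5* in livers (-0.0502 by limma-voom, -0.0535 with the block, -0.2924 to 0.1505 with 1 library left out), *Chac1* in livers (-0.9616 to 0.6208), and for the tissue differences of *Trib3* (-0.4904 to 0.0378) and *Chac1* (-1.21 to 0.3768). The cause was not tested. Few reads of *Fgf21* and *Gdf15* in iMEFs, and of *Asns* and *Phgdh* in livers, limit the precision of their values.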

Other observations

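The composite element TGATGNAA stood in the promoter windows of 5 of 14 ATF4 targets for transcription and feedback with a window (35.7%), 5 of 18 genes of amino acid transport and synthesis (27.8%), 5 of 8 aminoacyl-tRNA synthetases (62.5%), 1 of 12 genes for eIF2 and its regulators (8.33%), 1 of 16 p53 targets (6.25%), and 0 of 11 genes of the mitochondrial unfolded protein response, against 4.51% of all genes. The lists for ER chaperones (15 genes), mitokine receptors (5) and PPAR alpha targets (10) also had 0. These shares were not tested, and several of the lists were drawn up as ATF4 targets.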
